A study of Mus musculus with 2 samples.

Results

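*Ifi203*, *Ifi204* and *Ifi205* of the Ifi200 cluster on chromosome 1 and *Phf11a*, *Phf11b*, *Phf11c* and *Phf11d* of the *Phf11* cluster on chromosome 14 were described in hepatocytes cultured from control and *Drp1*LiKO mice. These 7 genes were chosen with measured values known, as interferon-inducible genes of clusters whose detected members had higher signals on the *Drp1*LiKO array. Every probe whose gene name in the array files is one of the 7 was then taken, which gave 9 of 56605 probes and 6 of 37074 gene names. *Ifi203* had no probe under its own name.

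The arrays addressed which genes change in hepatocytes when *Drp1* is deleted. *Drp1*, listed as *Dnm1l*, is the GTPase that divides mitochondria. Control mice were *Drp1*flox/flox littermates, which the labels call wild type control, and *Drp1*LiKO mice carried Alb-CreTg/+ with *Drp1*flox/flox, both on a C57BL/6 background. The albumin promoter drives Cre in hepatocytes, and which other cells of the liver keep the gene was not tested here. Cells were freed by collagenase perfusion and pelleted at low speed, and RNA was taken 24 h after seeding from cells given no agent that the labels name beyond the culture medium. Each genotype had 1 array of 60-base probes, read in 1 color, and both arrays lay on 1 slide. An age and sex are given only for C57BL/6J mice that the study bought, and those of the mice behind these cultures and their number were not given in the sources used here. Without a replicate no test was made, and each value describes these 2 arrays.

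Ifi200 proteins, also called PYHIN proteins, join an N-terminal pyrin domain to a HIN domain that binds DNA, and several of them have been studied as sensors of DNA. *Aim2* is the member of this family that binds DNA in the cytosol and assembles an inflammasome. The *Phf11* genes of the mouse encode proteins with a PHD finger, a zinc-binding fold found in many proteins that bind chromatin. Both families lie as tandem copies, and type I interferon raises their transcripts through a complex that holds *Stat2* and *Irf9* and binds the interferon-stimulated response element in promoters.

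Promoter windows of 300 bases, 250 before to 50 after the start of the transcript, were read from RefSeq for GRCm38.p6. They are shown for the largest difference of the *Phf11* cluster and its near copy, for *Phf11d* as a window without a match, and for both Ifi200 genes with a match. Capitals mark GAAANNGAA, the core of the interferon-stimulated response element, on either strand. The windows are *Phf11a* at chr14:59297473-59297772, *Phf11b* at chr14:59341281-59341580, *Phf11d* at chr14:59365441-59365740, *Ifi203* at chr1:173942443-173942742 and *Ifi205* at chr1:174031706-174032005, all on the minus strand and written 5′ to 3′ along the gene.
Phf11a: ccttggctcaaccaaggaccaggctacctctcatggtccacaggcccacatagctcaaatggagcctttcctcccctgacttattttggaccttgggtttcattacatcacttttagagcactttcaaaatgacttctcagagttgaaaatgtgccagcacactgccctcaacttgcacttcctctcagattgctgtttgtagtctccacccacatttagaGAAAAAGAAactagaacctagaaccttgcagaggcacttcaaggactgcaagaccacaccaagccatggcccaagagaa
Phf11b: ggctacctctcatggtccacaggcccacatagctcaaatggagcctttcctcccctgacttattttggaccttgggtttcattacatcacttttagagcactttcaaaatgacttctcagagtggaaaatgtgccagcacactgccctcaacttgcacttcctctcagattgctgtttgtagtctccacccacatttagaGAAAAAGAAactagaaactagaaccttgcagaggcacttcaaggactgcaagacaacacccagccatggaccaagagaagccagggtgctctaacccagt
Phf11d: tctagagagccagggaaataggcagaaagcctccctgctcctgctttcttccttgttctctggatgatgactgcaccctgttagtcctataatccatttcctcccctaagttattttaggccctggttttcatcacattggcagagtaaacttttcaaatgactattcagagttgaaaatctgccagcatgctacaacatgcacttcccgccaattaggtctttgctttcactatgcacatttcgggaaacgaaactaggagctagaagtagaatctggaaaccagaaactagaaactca
Ifi203: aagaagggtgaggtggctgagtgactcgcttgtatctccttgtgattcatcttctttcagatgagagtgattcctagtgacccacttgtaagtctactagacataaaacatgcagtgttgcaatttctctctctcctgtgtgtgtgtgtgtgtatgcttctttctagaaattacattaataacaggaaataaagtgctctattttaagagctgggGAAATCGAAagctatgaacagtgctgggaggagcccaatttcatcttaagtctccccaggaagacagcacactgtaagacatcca
Ifi205: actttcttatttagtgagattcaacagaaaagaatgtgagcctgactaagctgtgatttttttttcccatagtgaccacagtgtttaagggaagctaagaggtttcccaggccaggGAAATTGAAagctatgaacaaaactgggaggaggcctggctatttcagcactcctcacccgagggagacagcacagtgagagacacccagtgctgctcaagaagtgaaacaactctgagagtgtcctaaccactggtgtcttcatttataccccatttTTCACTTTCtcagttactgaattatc

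RefSeq gave 7 windows for 6 of the 7 members and none for *Ifi204*. The core stood in 4 of the 7 windows. It began 29 bases before the start of *Phf11a*, 50 before that of *Phf11b*, 35 before that of *Ifi203* and 134 before that of *Ifi205*, each time as read along the gene. *Ifi205* held a second match, on the opposite strand, 24 bases after its start. The windows of *Phf11c* and *Phf11d* and the other window of *Ifi203* held none. Of all 32851 windows, 8.56% held the core. TTCNNNGAA, the gamma-activated site of genes induced by interferon gamma, stood in 8.30% of all windows and in 0 of the 7, so no match overlapped a match of the other motif. A form of the core with a shorter gap, GAAANGAAA, was searched on both strands after the windows had been seen. It stood in *Phf11d* alone of the members, 4 bases before the start, in 3.17% of all windows, and in 0.615% together with the core. A match describes these letters and is not a shown binding site, and its absence says only that the letters are not in the window.

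The windows of *Phf11a* and *Phf11b* were near copies. Shifted by 21 bases they were identical at 98.2% of 279 positions, with an unbroken run of 123 shared bases, and their core is the same sequence 21 bases apart. *Phf11a* and *Phf11d* shared no run over 14 bases, and neither did *Ifi203* and *Ifi205*, whose shared run covers the end of the core in both windows.

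**Figure D1:**
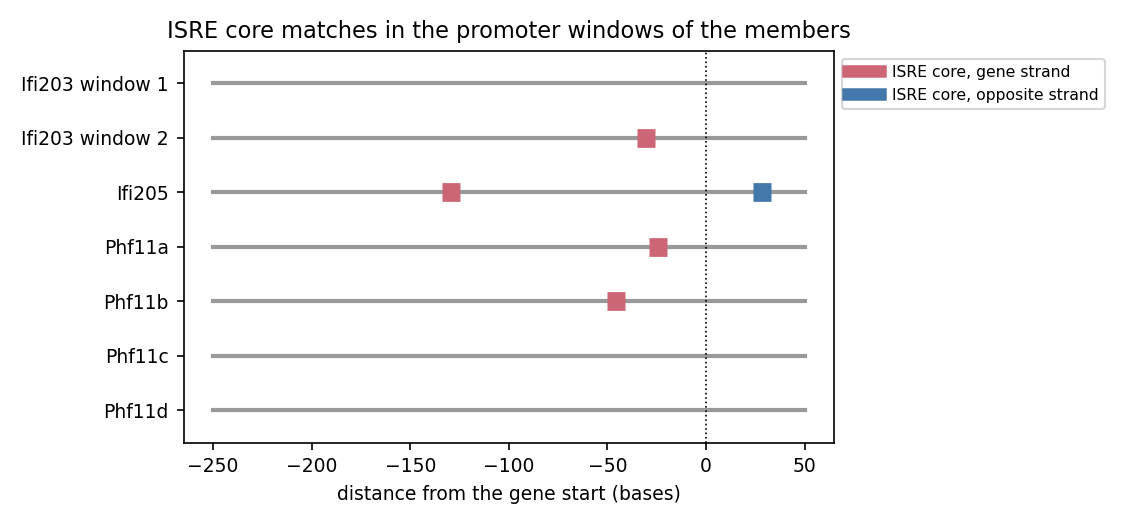
Matches to the core of the interferon-stimulated response element in the 7 promoter windows, by distance in bases from the start of the transcript. The core lies 29 to 50 bases before the start of *Phf11a*, *Phf11b* and 1 window of *Ifi203*, lies farther off in *Ifi205*, and is not present in the windows of *Phf11c* and *Phf11d*.

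All 4 *Phf11* genes had higher signals in *Drp1*LiKO cells, and *Phf11a* and *Phf11d* stood out in size. The signal is the processed intensity of the scanner software, with the error that software gives for a spot within an array. *Phf11a* (A_51_P262515, NM_172603, at chr14:59895771-59895830 of mm9) read 26.1 ± 5.31 on the control array and 620 ± 62.2 on the *Drp1*LiKO array. Signals were then divided by the 75th percentile of their array, 313 for control and 356 for *Drp1*LiKO, and compared as a log2 ratio of *Drp1*LiKO over control. The log2 ratio of *Phf11a* was 4.39 ± 0.33, a 21.0-fold difference and the fifth highest of all genes with bounds taken at their value.

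In control cells *Phf11a* lay close to the background. The raw mean of its spot was 88.2 against a local background of 55, but the scanner software still marked it as well above background. A 21.0-fold ratio therefore has a small denominator, and it was 2.65 on the log2 scale when background was corrected by normexp with an offset of 50.

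*Phf11d* had 2 probes, and both were higher in *Drp1*LiKO cells. A_55_P2015687 (NM_199015, at chr14:59967581-59967640) read 123 ± 13.0 on the control array and 1978 ± 198 on the *Drp1*LiKO array, which gave a log2 ratio of 3.83 ± 0.21 or 14.2-fold. A_52_P380369 (BC030186) read 82.7 ± 9.35 and 746 ± 74.7, a log2 ratio of 2.99 ± 0.22 or 7.95-fold. The probes lie 558 bases apart, and their log2 ratios differed by 0.84, which is more than the error of either.

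The first of these probes resembles the probe of *Phf11a*. In their best overlap without gaps 48 bases were identical. The probes are shifted against each other there, so fewer than their 60 bases were compared. A shared run of 22 is shown here in capitals within 30 bases of each probe, from base 10 of the *Phf11a* probe and base 1 of the *Phf11d* probe.
Phf11a: cccTGGGTTTATGCTCACTATCATAccaga
Phf11d: ccaTGGGTTTATGCTCACTATCATAtcaca
The other *Phf11d* probe had no run of 22 bases in common with any probe of the array, and its longest shared run was 15, with *Orm1*, an acute phase protein. Its 7.95-fold difference thus does not rest on the stretch shared with the *Phf11a* probe. Probes were compared only with probes, and not with the transcripts of the other *Phf11* genes. How far the *Phf11a* and *Phf11d* transcripts hybridized to each other's probes was not tested.

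*Phf11c* and *Phf11b* had smaller ratios. *Phf11c* (A_55_P2744925, NM_001164289) read 85.1 ± 9.33 on the control array and 518 ± 51.9 on the *Drp1*LiKO array, which gave a log2 ratio of 2.42 ± 0.21 or 5.36-fold. Its match runs from 60000321 to 60002206, farther than the length of the probe, and so crosses an intron. *Phf11b* (A_55_P2038262, NM_001164327, at chr14:59939869-59939928) read 32.9 ± 4.95 and 153 ± 15.6, a log2 ratio of 2.04 ± 0.26 or 4.10-fold. *Phf11a* and *Phf11b* thus had the nearly identical promoter windows and the highest and the lowest ratio of the 4 genes, although with normexp *Phf11d* was the highest. *Phf11b*, like *Phf11a*, had a low signal in control cells, and its log2 ratio was 1.05 with normexp.

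**Figure D2:**
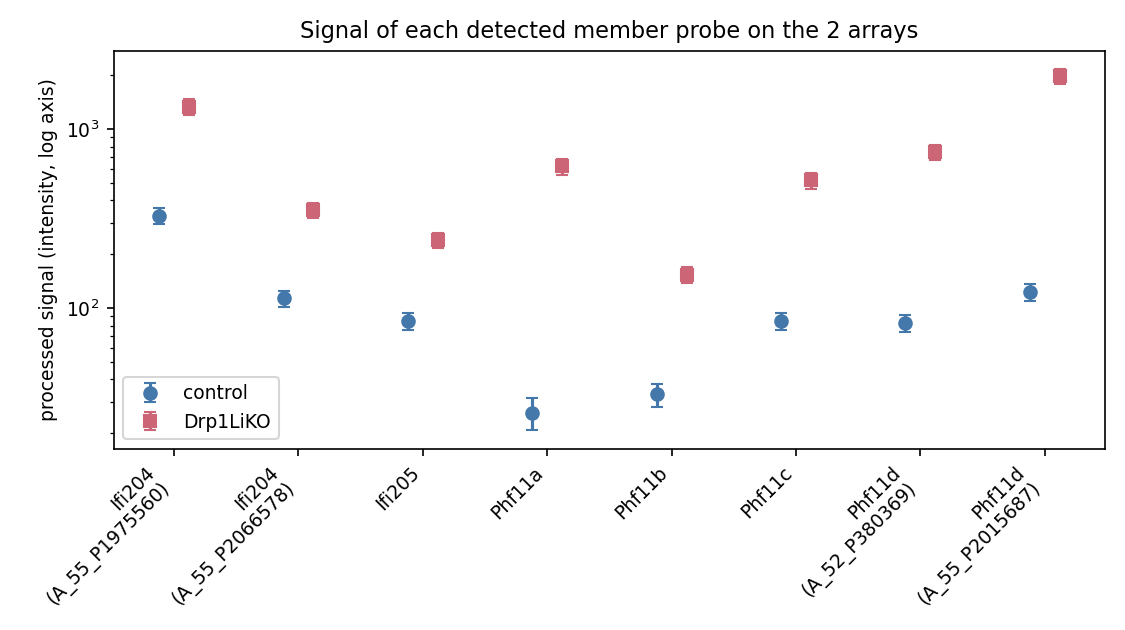
Processed signal on a log axis of the 8 detected probes on the control (circles) and *Drp1*LiKO (squares) array, with the error that the scanner software gives for the spot. Each *Drp1*LiKO signal lies above the control signal of the same probe, and the gap is widest for *Phf11a*, from 26.1 to 620, and the brighter *Phf11d* probe.

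*Ifi204* and *Ifi205* were also higher in *Drp1*LiKO cells, with smaller ratios than the *Phf11* genes, except that *Ifi204* lay above *Phf11b* with normexp. *Ifi204* encodes a PYHIN protein studied as a DNA sensor upstream of Sting. Its probe A_55_P1975560 (NM_008329, at chr1:175677647-175677706 of mm9) read 328 ± 33.1 on the control array and 1338 ± 134 on the *Drp1*LiKO array, which gave a log2 ratio of 1.85 ± 0.20 or 3.60-fold. A_55_P2066578 (BC010546), 95 bases away, read 113 ± 12.1 and 353 ± 35.5, a log2 ratio of 1.46 ± 0.21 or 2.74-fold. The probes had the same direction, and their log2 ratios differed by 0.39.

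*Ifi205*, another PYHIN gene of the cluster, had 2 probes of which 1 could be measured. A_55_P1962918 (NM_172648, at chr1:175942245-175942304) read 84.9 ± 9.48 on the control array and 240 ± 24.3 on the *Drp1*LiKO array, which gave a log2 ratio of 1.32 ± 0.22 or 2.49-fold. A_52_P435154, designed on the same transcript 14502 bases away, was not well above background on either array, with signals of 4.16 and 6.44, and gave no ratio. *Ifi205* therefore rests on 1 of its 2 probes. *Ifi203* was looked for under other names, and a probe for ENSMUST00000138143 carries the name of the *Ifi203* product in its description. It was not well above background on either array, at 3.73 and 13.3.

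Read as Z scores, the members lay in the upper tail of all differences. The study selected genes at a Z score of 2, and here the Z score is the log2 ratio minus its mean, over its SD of 0.65, among the 30275 probes that 1 or both arrays measured above background. A Z score of 2 was a log2 ratio of 1.30, or 2.46-fold. All 8 detected member probes passed it on the higher side, beside 890 of the 30275 (2.94%), and all 6 detected genes, each by its brightest probe, beside 705 of 20165 (3.5%). Nothing is read from these counts, since the genes were chosen on the same difference. Z scores ran from 2.03 for *Ifi205* to 6.74 for *Phf11a*. The median log2 ratio was 2.23 over the 6 genes and 3.13 over the *Phf11* genes, and it was -0.05 over all detected genes.

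**Figure D3:**
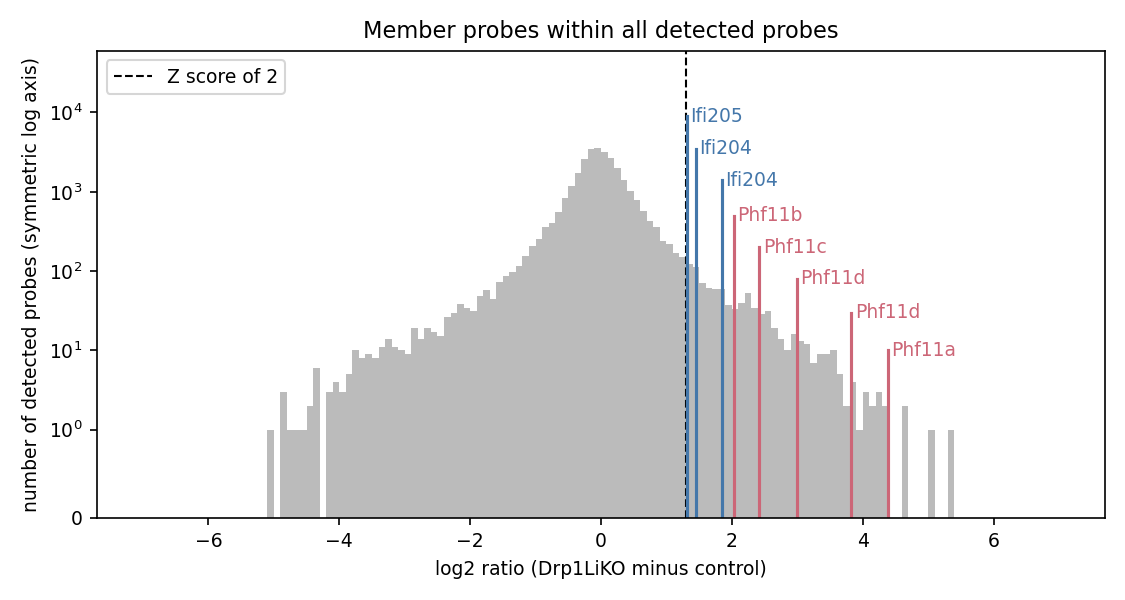
Number of detected probes by log2 ratio of *Drp1*LiKO over control, with the number on a symmetric log axis and the member probes as vertical lines whose height has no meaning. The *Ifi205* probe, at 1.32, lies just past the dashed line at a Z score of 2, and *Phf11a*, at 4.39, lies near the upper end of the range.

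The size of the ratios changed more with normexp background correction than with the scaling. Its offset of 50 was added to the signals of both arrays, which by itself shrinks the ratios of dim probes. How much of the change came from the offset was not tested. Over quantile, median and spike-in scaling every member gene kept its value within its error. With normexp, *Phf11c* was at 1.83, *Phf11d* at 3.30, *Ifi204* at 1.68 and *Ifi205* at 0.88 on the log2 scale, and all 8 probes still passed a Z score of 2, which was a log2 ratio of 0.79 there. *Ifi205* fell short of 2 without a floor for dim signals, and with the normalized values that the authors deposited its log2 ratio was 1.20, which was also short.

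**Figure D4:**
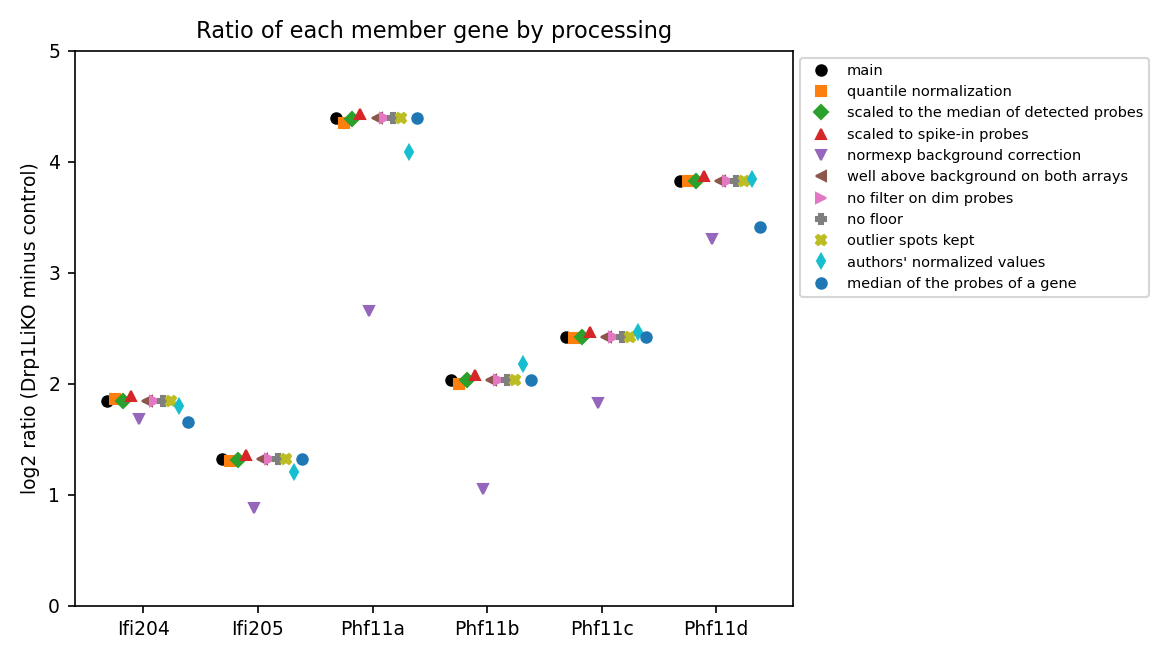
Log2 ratio of *Drp1*LiKO over control of each member gene, by its brightest probe unless stated, under the processing used here (main, black circles) and 10 alternatives. Every value lies above 0, and normexp background correction gave the lowest value for *Phf11a* (2.65), *Phf11b* (1.05), *Phf11c*, *Phf11d* and *Ifi205*.

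The neighbors of the *Phf11* genes on the chromosome showed no such differences. The *Phf11* probes span 106 kb of chromosome 14 in mm9, from 59895771 for *Phf11a*, and all 5 were higher. Of 20 other probes within 500 kb of them, 8 were detected, and none passed a Z score of 2. They cover *Rcbtb1*, *Setdb2* (a SET domain gene of the histone methyltransferase kind), *Cab39l* and *Cdadc1*. Their log2 ratios ran from -0.32 for a *Setdb2* probe to 0.42 for an *Rcbtb1* probe, with a median of -0.05. *Setdb2* read 312 and 312 at its brighter probe.

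Around the Ifi200 members many detected neighbors were higher as well. Of 55 other probes within 500 kb of the *Ifi204* and *Ifi205* probes, which lie 279 kb apart on chromosome 1 of mm9, 17 were detected, 16 had a ratio above 0 and 9 passed a Z score of 2. Many of the 17 were well above background on the *Drp1*LiKO array only. They were kept through that array, so the direction of their ratios carries little. Of those well above background on both arrays, a *Pydc3* probe and *Olfr430* had log2 ratios of 0.09 and 0.30, and the others passed. *Mndal*, another PYHIN gene, read 28.3 on the control array and 131 on the *Drp1*LiKO array, which gave a log2 ratio of 2.03. The probe for ENSMUST00000155076, a predicted gene that RefSeq lists as *Ifi203-ps*, read 29.5 and 111, a log2 ratio of 1.73. LOC102639543, described in the file as like pyrin domain-containing protein 3, was not well above background in control cells and at least 3.84-fold higher in *Drp1*LiKO cells. The other 6 of the 9 are named in the file as lincRNA of the reverse strand. *Ifi204*, *Ifi205* and *Mndal* lie on that strand, whereas *Pydc3*, *Pyhin1* and *Aim2* lie on the other.

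These lincRNA-named probes lie between named Ifi200 genes. All 7 that were detected are on the reverse strand, in 3 regions, and their log2 ratios ran from 1.15 to 2.57, with 2 of them not well above background in control cells. The *Ifi204* probe A_55_P1975560 shares a run of 18 bases with a probe of 1 of these regions. The brighter probe of that region read 250 and 1114, and which of its probes holds the run is not given here. Whether these probes measure separate transcripts or transcripts of the Ifi200 genes was not tested.

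**Figure D5:**
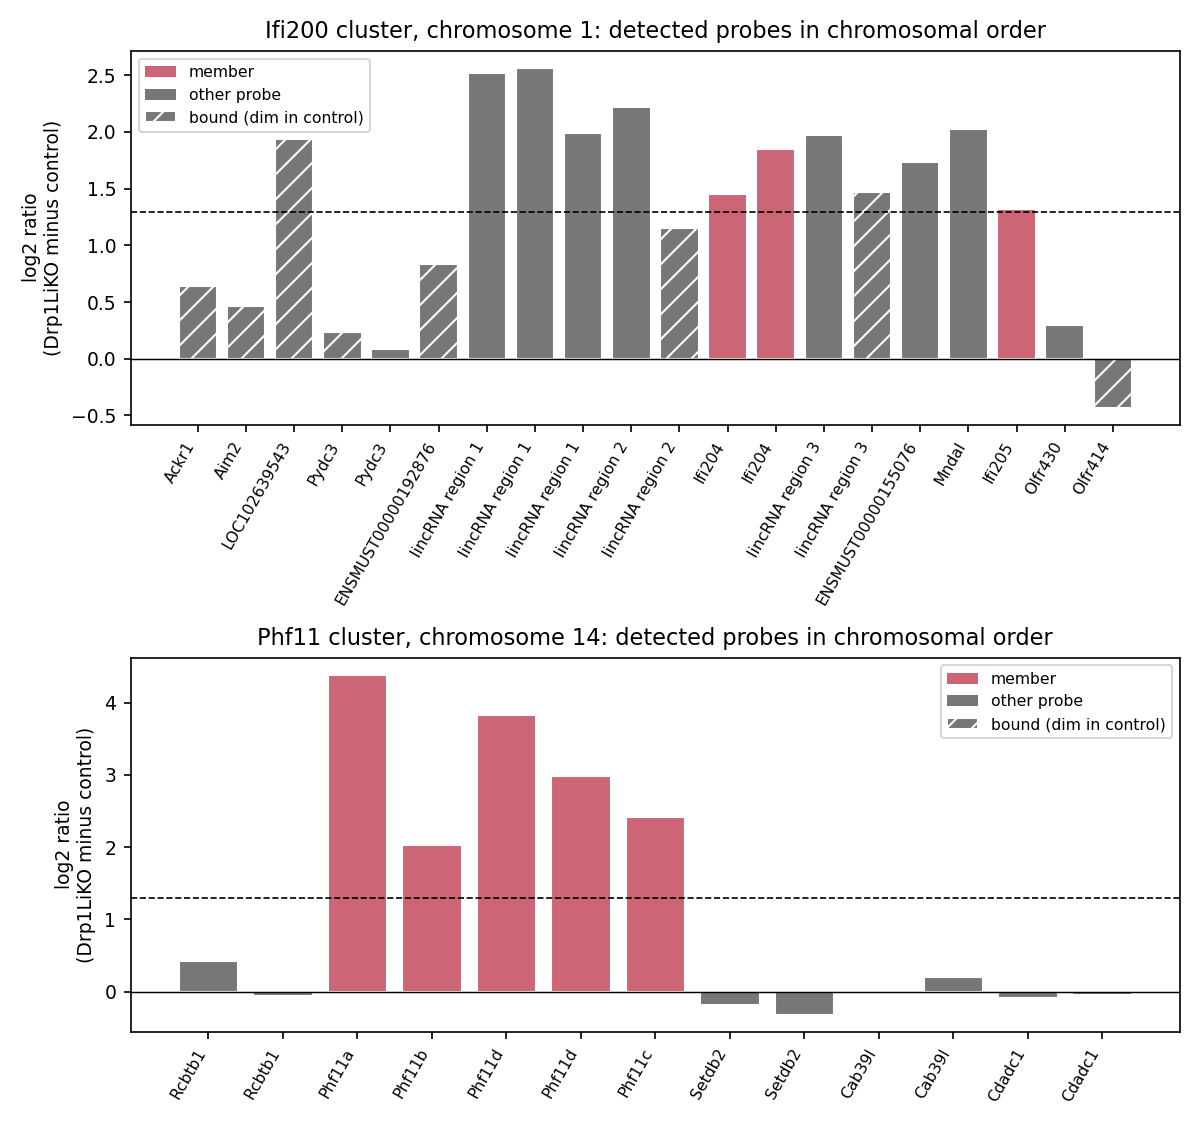
Log2 ratio of *Drp1*LiKO over control for each detected probe within 500 kb of a member probe, in order along chromosome 1 (upper panel) and chromosome 14 (lower panel), with members in red, ratios with a dim control signal hatched and a Z score of 2 dashed. On chromosome 14 the 5 *Phf11* probes stand between neighbors within -0.32 to 0.42. On chromosome 1 most of the other probes above 1 lie beside *Ifi204*, up to *Mndal*. Past *Ifi205* the detected probes are *Olfr430*, at 0.30, and *Olfr414*, whose -0.43 is a bound.

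The rest of the PYHIN family was mostly not detected. Of 16 names, which hold older and newer symbols of the same genes, 7 were on the array and 3 were detected. *Mndal* passed a Z score of 2. *Pydc3*, which RefSeq now lists as *Ifi208*, read 875 and 1054 at its brightest probe, a log2 ratio of 0.09, whereas a second probe was not well above background in control cells and read 24.4 in *Drp1*LiKO cells. *Aim2* was not well above background in control cells and read 28.6 in *Drp1*LiKO cells at 1 of its 2 probes. That was at least 1.38-fold higher and short of the threshold. Its other probe was not well above background on either array, at 3.88 and 3.18. *Pyhin1*, *Ifi202b*, *BC094916* (now *Ifi214*) and *Pydc4* (now *Ifi213*) were not well above background on either array.

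Genes that act with PYHIN proteins or with interferon differed in part. Of 12 genes of DNA sensing and the inflammasome, all detected, 3 passed a Z score of 2 on the higher side and 1 on the lower. *Casp4*, the caspase that senses lipopolysaccharide in the cytosol, had a log2 ratio of 4.22, from 46.5 to 985. *Ifnb1*, which encodes interferon beta, and *Casp1*, the inflammasome caspase, were not well above background in control cells and were at least 4.51-fold and 3.34-fold higher. *Mb21d1*, which encodes cGAS, had a ratio of -1.42, and *Tmem173*, which encodes Sting, had one of 1.24, short of the threshold. Of 13 genes of interferon signaling, all detected, 4 passed, among them *Stat2*, *Irf7* and *Usp18*, with log2 ratios of 1.35 for *Stat2*, 1.97 for *Irf7* and 2.41 for *Usp18*, a feedback inhibitor of the interferon receptor. *Irf9* had a ratio of 1.00 and the receptor genes *Ifnar1* and *Ifnar2* of 0.58 and 0.03. The genes measured on both arrays whose log2 ratio lay closest to the member median were *Anxa1*, *Pip5k1b*, *Thbd*, a lincRNA-named probe beside *Ifi204* and *Cyp3a25*, at 2.22 to 2.24, a likeness over 2 arrays only.

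Markers of macrophages, endothelial cells and stellate cells were mostly higher in *Drp1*LiKO cells, as the members were, and those of other cells were mixed or lower. Of 18 macrophage and Kupffer cell markers 17 were detected, 16 had a ratio above 0 and 13 passed a Z score of 2, with a median log2 ratio of 2.37. Their summed signal was 15405 on the control array and 34174 on the *Drp1*LiKO array. *Clec4f* and *Vsig4*, which mark Kupffer cells, and *Fcgr1* and *Laptm5* were not well above background in control cells, and *Timd4* on neither array. All 9 endothelial markers had a ratio above 0 and 4 passed, with summed signals of 4460 and 9124. Most of the endothelial sum was *Egfl7*, at 3773 and 6941, which did not pass. *Lyve1*, which passed, and *Tek* were not well above background in control cells. Of 7 stellate cell markers 6 were detected and 2 passed, with summed signals of 21737 and 26105. *Pdgfrb*, which passed, and *Des* were not well above background in control cells. Most of the stellate sum was *Acta2*, at 21437 and 24640, with a log2 ratio of 0.02. Of 7 B cell markers 4 were detected, 2 above and 2 below a ratio of 0, and 1 passed. That was *Blnk*, an adaptor of B cell receptor signaling, at 1.63, with signals of 1131 and 3960. *Cr2*, above 0, and *Ms4a1*, at -0.29, were well above background on the *Drp1*LiKO array only. Their ratios are bounds, and that of *Ms4a1* does not show a lower signal. *Cd79a* and *Cd79b*, chains of that receptor, were not well above background on either array. Of 9 T and NK cell markers 2 were detected, both with a ratio below 0, and neither passed. Of 6 neutrophil markers 2 were detected and 1 passed, *Ly6g*, which was not well above background in control cells and at least 3.72-fold higher in *Drp1*LiKO cells. Of 5 cholangiocyte markers 4 were detected, 2 above and 2 below 0, and none passed. The part of these cells in the signals of the members was not tested. In such bulk RNA, more cells of a type and more RNA per cell cannot be told apart.

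The labeled cell type and genotype were checked on the arrays. All 11 hepatocyte markers on the array were detected, and the median of their log2 ratios was 0.09. These ran from -0.78 for *Cyp2e1*, a cytochrome P450, to 1.83 for *Ahsg*, which encodes fetuin-A and was the one that passed a Z score of 2, with signals of 12810 and 51568. *Dnm1l* read 2602 on the control array and 1217 on the *Drp1*LiKO array at the brighter of its 2 probes, which gave a log2 ratio of -1.28. Its Z score of -1.95 was just short of the threshold on the lower side. The share of probes marked as well above background was 48.2% on the control array and 52.1% on the *Drp1*LiKO array, and none of the spots was saturated.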

How the data were processed

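The authors labeled RNA with Cy3, hybridized it to Agilent 8x60K v2 arrays and deposited the Feature Extraction output of each array, an intensity per spot. The file headers give Feature Extraction 10.7.1.1 and the submitters' processing notes 9.5.1.1. The processed signal is corrected for background and not normalized between arrays. A table of normalized intensities was deposited as well. The rank correlation between its *Drp1*LiKO column and that array was 0.958 over probes, so it served only as an alternative. Coordinates of probes are those of the files, in mm9.

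Here log2 signals of spots not marked as outliers were averaged for each probe, less the 75th percentile of the array. Probes were kept if 1 or both arrays marked them as well above background, and dim signals were raised to the lowest signal well above background on that array (18.2 in control, 15.0 in *Drp1*LiKO), so that their ratios are bounds. A gene was its brightest probe. Errors are those of Feature Extraction, carried to the ratio. They cover 1 array each, and the number of arrays limits the precision.

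The members and gene lists were chosen with earlier results of these data known. Named are all members, other PYHIN genes, genes detected within 500 kb, the genes of the DNA sensing, interferon and marker lists, *Dnm1l* and the 5 genes closest to the member median. Alternatives were 3 other scalings, normexp, the deposited normalized values, 2 filters, no floor, outlier spots kept, 2 other Z scores and the median of a gene's probes. Only the comparison of probe levels between arrays and the step from probes to genes were tested on simulated data. Spot averaging, the floor for dim signals, the alternatives and the promoter search were not tested in this way. Some genes of the lists are not reported here. Calculations used Python 3.11.15, numpy 2.4.6, pandas 2.3.3, matplotlib 3.10.9, limma 3.58.1 and R 4.3.3.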

Additional observations from a re-analysis of the deposited data

How the results depend on the processing

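Over the alternatives no member gene changed direction, and 54 of 60 recomputed member ratios stayed within their error. Part of that count was fixed in advance. The 8 detected member probes were well above background on both arrays, so the 2 filters and the lack of a floor could not move their ratios. The median of a gene's probes could not move a gene with 1 detected probe. The median log2 ratio of the member genes was 1.76 with normexp and otherwise close to 2.23. The normexp offset of 50 by itself shrinks the ratios of dim probes. The number of member probes past a Z score of 2 was 8, except 6 without a floor, where *Ifi205* and the dimmer *Ifi204* probe fell short, and 7 with the authors' normalized values. Genes higher over the whole array were 705, against 1355 with no filter on dim probes and 1722 with a robust Z score, which also raised the genes lower from 566 to 1443. The share of higher among genes called was 55.5%, but 69.4% with no filter on dim probes and 46.7% with Z scores taken within bins of like signal, which called 639 genes higher and 730 lower. No paired analysis was possible because each genotype had 1 array, and no array could be left out. Low control signals limit the ratios of *Phf11a* and *Phf11b* most.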
